A study of Mus musculus with 10 samples.

Results

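The genes described here encode subunits of RNA polymerases I, II and III and of TFIIIC, a DNA-binding factor that works with polymerase III and is not itself a polymerase subunit. The rule chose genes by name: array rows annotated with a single gene symbol beginning with Polr1, Polr2, Polr3 or Gtf3c, pseudogenes left out. For each gene it took the row with the highest mean signal over all arrays, whatever their group. Earlier results of these data were known when the genes were chosen. These steps gave 31 genes of the 30142 with a row that names a single symbol. They comprised 5 genes named for polymerase I, 11 for polymerase II, 9 for polymerase III and 6 for TFIIIC. All 31 lay above the signal floor of log2 5.24 (the median row mean of the array), so all were among the 17800 genes tested.

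The cells were 4T1, an established mouse mammary carcinoma line, with no genetic change named in the labels. They were grown for 5 days in collagen gels of 2 mg/mL (low density, LD) or 3.5 mg/mL (high density, HD), from 50000 cells at the start, in RPMI medium with fetal bovine serum. The medium was changed on day 3 in both groups. RNA of 5 LD and 5 HD samples was hybridised to Affymetrix whole-transcript arrays, 1 sample per array. The labels do not say that the samples of a group were separate cultures, so a p-value covers the variation among these samples, possibly only technical.

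RNA polymerase I transcribes the large ribosomal RNA precursor in the nucleolus. Polymerase II transcribes messenger RNA, and polymerase III makes transfer RNA and other small RNAs. Each enzyme has a catalytic pair of large subunits, a stalk and peripheral subunits of its own, while some small subunits are common to polymerases I and III or to all of them. TFIIIC binds the promoter elements inside transfer RNA genes and brings the initiation factor TFIIIB and then polymerase III to them. The comparison asks how these genes differ in signal between cells in dense and in sparse collagen.

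Most of these genes had a higher signal in HD, by small amounts. Of 31 genes, 24 rose, 1 fell and 6 did not pass the test (limma, Benjamini-Hochberg adjusted p under 0.05 over all genes tested). Among all genes tested, 31.4% rose and 19.5% fell, or 50.9% in either direction. The median difference was 0.18 on the log2 scale over the 31 genes and 0.055 over all genes tested. As deposited, 28 of the 31 differences lay above the median of all genes tested, and fewer did so under the other scalings given below. The 5 HD arrays all lay above the 5 LD arrays for 23 genes, where 21.6% of all genes tested did so, and all below them for 1 gene, where 15.1% did so. A single gene, Polr2l, rose by at least 1.5-fold, as did 0.775% of all genes tested. RMA compresses differences, so folds are ratios of RMA signals. A lower signal in bulk RNA cannot separate fewer cells expressing a gene from less RNA per cell.

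**Figure D1:**
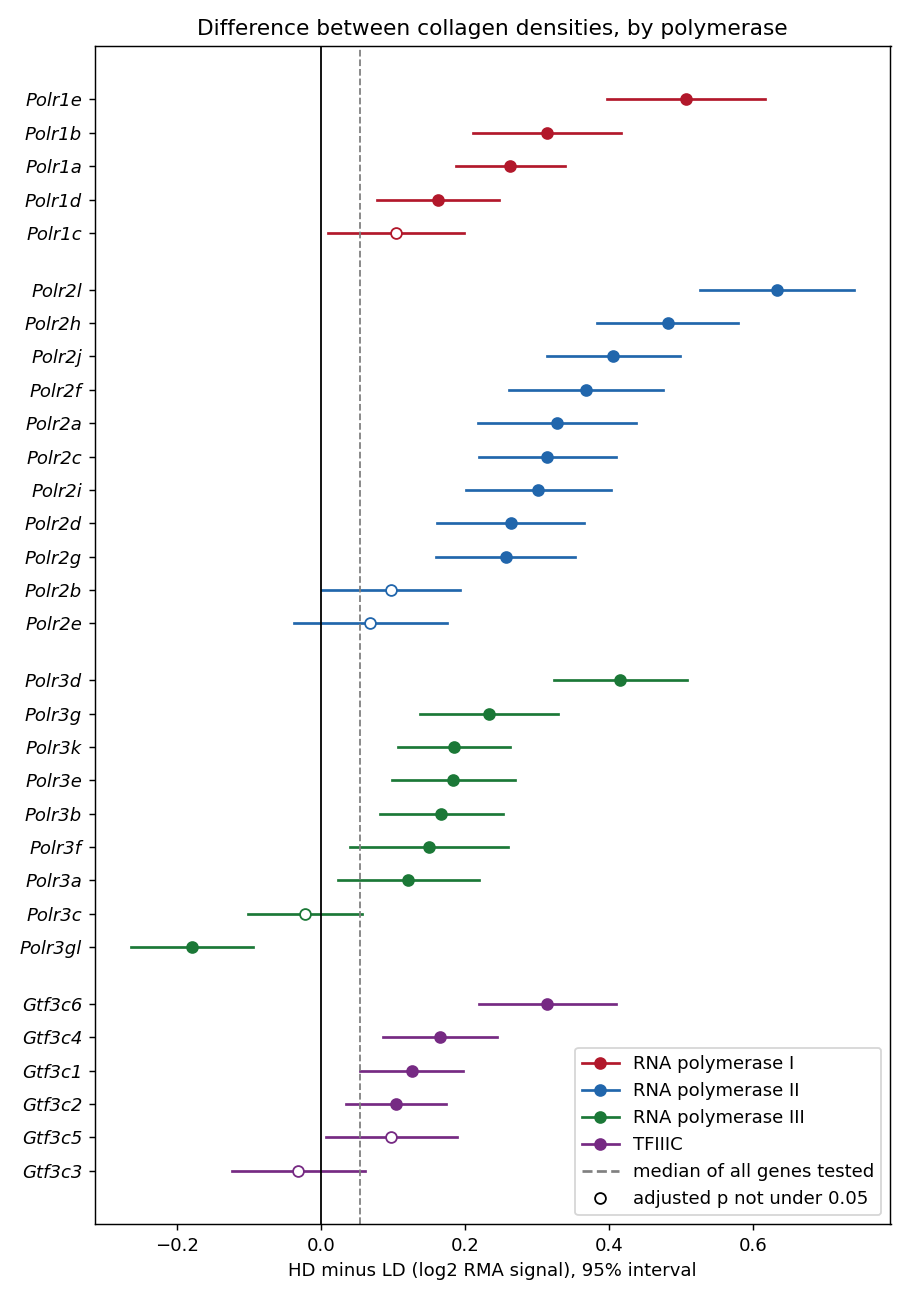
The HD minus LD difference in log2 RMA signal of each of the 31 genes (points) with its 95% interval from limma (lines), grouped by polymerase. Filled points passed an adjusted p of 0.05, open points did not, the dashed line marks the median of all genes tested (0.055), and Polr3gl is the filled point below 0.

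The arrays carried other differences between the groups. Arrays correlated across genes (not independent replicates) at 0.9961 to 0.9983 in a group and 0.9835 to 0.9932 from group to group. Negative control rows had a median of 5.67 ± 0.052 in LD and 5.42 ± 0.12 in HD (SD, n = 5). For positive control rows it was 9.21 ± 0.011 and 9.28 ± 0.045. The background rows differed in the opposite direction to the negative control rows, at 3.47 ± 0.055 and 3.63 ± 0.057. In these 3 cases the two-sided exact permutation p was 0.0079, the minimum with 5 arrays in each group. ERCC rows read 4.51 ± 0.037 and 4.70 ± 0.15 (exact permutation p = 0.032). The negative control medians lay above the signal floor of 5.24, so the control-row scaling did not rest on a background level. Within HD, replicate 2 had both the highest mean signal of the 31 genes (8.73, against 8.62 to 8.68 in the other HD arrays) and the highest positive control median (9.35, against 9.24 to 9.29). Of 8 epithelial markers with a row, 5 fell and none rose, and their summed linear signal was 15024 to 15186 in LD and 12677 to 13625 in HD. The defining epithelial genes Krt8 and Epcam had signals of 12.0 and 10.8 in LD and 12.0 and 10.2 in HD. Of 5 fibroblast markers with a row, 3 were above the floor and tested. Of these Col3a1 rose, and the list summed to 228 to 256 in LD and 242 to 289 in HD. Of 5 leukocyte markers with a row, only Cd3e was tested. It rose but lay near the floor (5.29 in LD and 5.45 in HD), and the list summed to 118 to 128 and 126 to 140. The defining leukocyte marker Ptprc lay at 3.09 and 3.14, below the median of the background rows (3.47 and 3.63). The 4 endothelial markers were below the floor, with sums of 80.1 to 88.4 and 86.1 to 90.9. The part of these in the results was not tested. Higher genes made up 61.7% of the calls over all genes tested as deposited, and 72.1% both after quantile normalization and once arrays were scaled linearly on their own negative and positive control rows. Of the 31 genes, 24 rose and 1 fell under each of these scalings too, while the share of all genes tested that rose was 42.9% after quantile normalization and 49.3% after control-row scaling. The median difference of the 31 genes was then 0.24 and 0.21, against 0.090 and 0.133 over all genes tested. After control-row scaling the TFIIIC median was 0.139, and Gtf3c1 (0.098) and Polr1d (0.130) were among the genes below the median of all genes tested.

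Of the 5 polymerase I genes 4 rose (80%) and 0 fell, beside 31.4% and 19.5% of all genes tested. The median difference was 0.26. Polr1e, which with Cd3eap forms a peripheral heterodimer of polymerase I, differed most. Its signals were 6.48, 6.55, 6.57, 6.51 and 6.68 on LD arrays 1 to 5 and 7.10, 7.21, 7.05, 6.97 and 6.99 on HD arrays 1 to 5. Every HD value was above every LD value, with HD replicate 2 the highest. The difference was 0.51 ± 0.051 (SE), 1.42-fold, with a limma adjusted p of 2.9e-06, and 1.54% of all genes tested rose by more.

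The catalytic pair of polymerase I rose without overlap between the groups. Polr1a, the largest subunit, read 8.64, 8.62, 8.68, 8.67 and 8.76 in LD and 8.94, 8.98, 8.91, 8.92 and 8.94 in HD. The HD arrays were close together (SD 0.025), and the difference was 0.26 ± 0.035 (SE, limma adjusted p = 3.4e-05). Polr1b, its partner in the active site, read 7.62, 7.58, 7.63, 7.65 and 7.74 in LD and 8.05, 8.07, 7.90, 7.91 and 7.88 in HD. Here HD replicates 1 and 2 stood above the other HD arrays, and the difference was 0.31 ± 0.048 (SE, limma adjusted p = 9.8e-05).

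Polr1c and Polr1d form the assembly platform that polymerases I and III have in common, and they differed less. Polr1d read 8.78, 8.71, 8.77, 8.81 and 8.78 in LD and 8.96, 9.00, 8.97, 8.84 and 8.89 in HD, a difference of 0.16 ± 0.039 (SE, limma adjusted p = 0.0035). Its groups did not overlap, with 0.027 between the lowest HD and the highest LD array. Polr1c read 9.17, 9.17, 9.13, 9.17 and 9.20 in LD and 9.32, 9.36, 9.33, 9.22 and 9.13 in HD. HD replicate 5 fell among the LD values. The difference of 0.10 (95% interval 0.0099 to 0.20) did not pass the test (limma adjusted p = 0.061), but passed without HD replicate 5 (0.14, adjusted p = 0.0093). After the control-row scaling the Polr1c difference was 0.041.

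Further polymerase I subunits carry other symbols in the annotation and are not among the 31 genes. Twistnb, of the stalk, differed by 0.36 ± 0.052 (SE), Cd3eap by 0.31 ± 0.049 and Znrd1, a subunit that takes part in RNA cleavage, by 0.34 ± 0.049, with limma adjusted p of 6.4e-05, 1.3e-04 and 6.4e-05. With Polr1a, Polr1b and Polr1e, all 6 measured subunits that only polymerase I uses rose, from 0.26 to 0.51.

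Of the 11 polymerase II genes 9 rose (81.8%), 0 fell and 2 did not pass, beside 31.4% higher and 19.5% lower of all genes tested. The median difference was 0.31. The largest subunit, Polr2a, carries the repeat tail whose phosphorylation marks the steps of transcription. It read 9.62, 9.40, 9.67, 9.60 and 9.57 in LD and 9.80, 9.89, 9.89, 9.96 and 9.97 in HD. LD replicate 2 was the lowest array, and the groups did not overlap. The difference was 0.33 ± 0.051 (SE, limma adjusted p = 1.2e-04). Its partner Polr2b read 10.20, 10.37, 10.22, 10.21 and 10.31 in LD and 10.42, 10.27, 10.36, 10.32 and 10.43 in HD. The groups overlapped, and the difference of 0.098 (95% interval 0.0022 to 0.19) did not pass the test (limma adjusted p = 0.080), and was 0.051 after quantile normalization. Polr2b passed without LD replicate 2 (0.12, adjusted p = 0.034) or HD replicate 2 (0.12, adjusted p = 0.040), and was lower in HD after the control-row scaling (-0.056, adjusted p = 0.38).

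The pair Polr2c and Polr2j is the polymerase II counterpart of Polr1c and Polr1d, and both genes rose. Polr2j read 8.03, 8.10, 8.15, 8.05 and 8.13 in LD and 8.52, 8.61, 8.50, 8.40 and 8.47 in HD, with 0.24 between the highest LD and the lowest HD array. The difference was 0.41 ± 0.043 (SE), 1.33-fold, with a limma adjusted p of 4.5e-06. Polr2c rose by 0.31 ± 0.044 (SE), with LD values of 10.59 to 10.73 and HD values of 10.90 to 11.05. After the control-row scaling its difference was 0.12 (limma adjusted p = 0.033), below the 0.13 median of all genes tested under that scaling. The stalk subunits Polr2d and Polr2g rose by 0.26 each (SE 0.048 and 0.045, limma adjusted p = 4.2e-04 and 3.1e-04). Polr2i, a small subunit linked to start site choice and to accuracy, rose by 0.30 ± 0.047 (SE), from 6.68 to 6.84 in LD to 6.97 to 7.18 in HD.

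Genes of subunits common to all the polymerases also carry the Polr2 name, and they held both the largest and the smallest difference among the 11 Polr2 genes. Polr2l, a small structural subunit, read 7.24, 7.37, 7.49, 7.34 and 7.34 in LD and 7.97, 8.11, 7.95, 8.00 and 7.91 in HD. The lowest HD array lay 0.42 above the highest LD array. The difference was 0.63 ± 0.050 (SE), 1.55-fold, with a limma adjusted p of 3.7e-07, and 0.528% of all genes tested rose by more. Polr2h read 8.19, 8.26, 8.28, 8.16 and 8.34 in LD and 8.75, 8.82, 8.67, 8.64 and 8.76 in HD. This was a difference of 0.48 ± 0.046 (SE), 1.40-fold (limma adjusted p = 1.7e-06), again with no overlap. Polr2f, with LD values of 10.42 to 10.53 and HD values of 10.72 to 11.01, rose by 0.37 ± 0.050 (SE), and by 0.18 after the control-row scaling.

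Polr2e did not move with the other common subunits. It read 9.96, 9.91, 9.95, 9.96 and 9.96 in LD and 10.00, 10.21, 9.92, 9.94 and 10.01 in HD. HD replicate 2 stood 0.20 above the next HD array, and HD replicates 3 and 4 lay within the LD range. The difference of 0.069 (95% interval -0.038 to 0.18) did not pass the test (limma adjusted p = 0.26), fell to 0.020 without HD replicate 2, was 0.028 after quantile normalization, and was -0.060 after the control-row scaling. Polr2k, the remaining common subunit, lies on a row that also names a second symbol and is not among the 31 genes. That row read 7.44 ± 0.073 (SD, n = 5) in LD and 7.68 ± 0.049 in HD. The row that names Polr2m with Myzap and Gcom1 read 6.23 ± 0.026 and 6.40 ± 0.037.

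**Figure D2:**
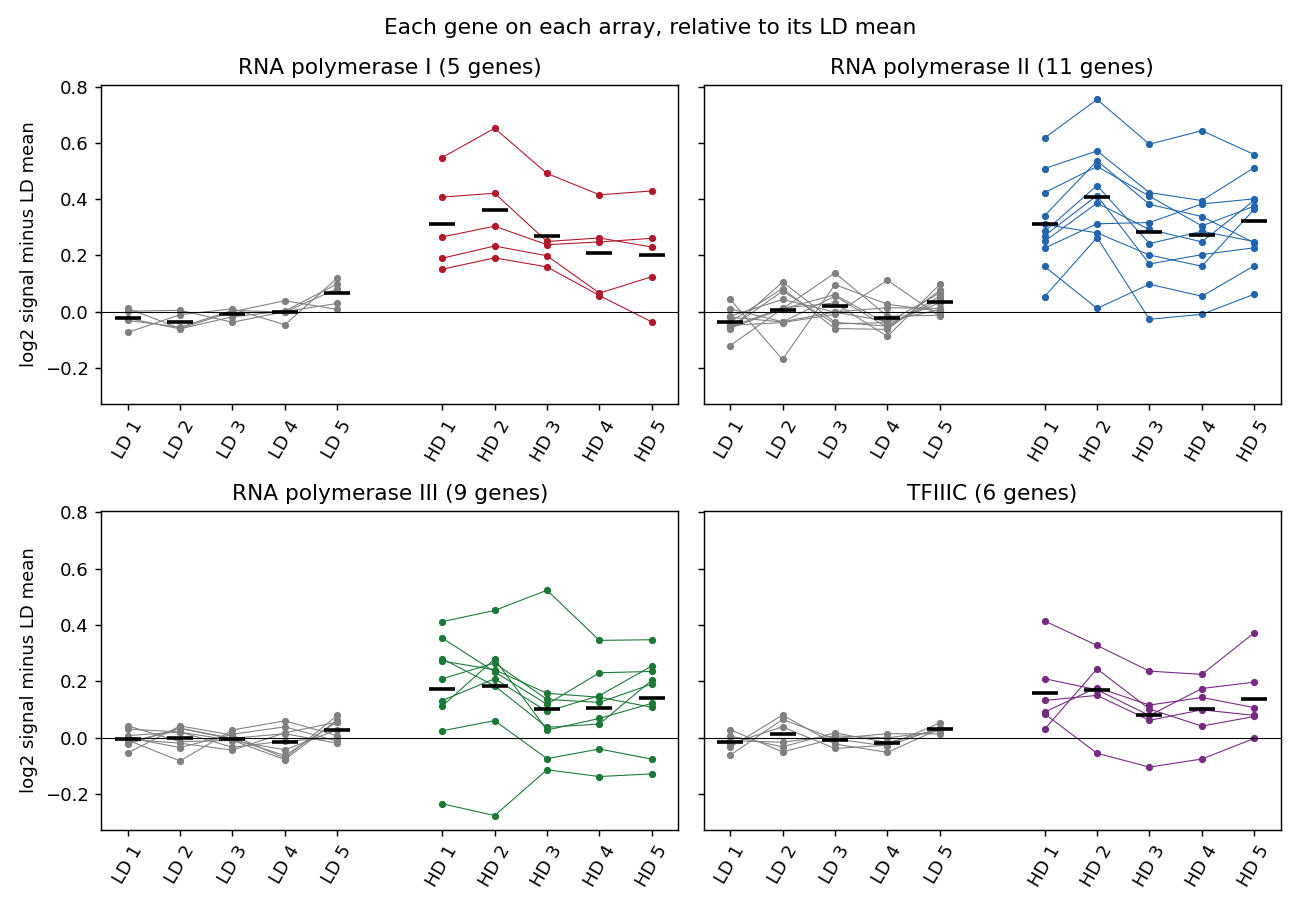
Log2 signal of each gene on each array minus that gene's mean over the 5 LD arrays, in 4 panels by polymerase. Points are single arrays, lines join the values of a gene, grey is LD, colour is HD, and black bars are the mean over the genes of the panel. The lowest coloured line in the polymerase III panel is Polr3gl.

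Among the polymerase III genes, 7 of 9 rose (77.8%), 1 fell (11.1%) and 1 did not pass the test, with a median difference of 0.17. Of all genes tested, 31.4% rose and 19.5% fell. The catalytic pair differed little. Polr3b read 8.69, 8.74, 8.71, 8.65 and 8.77 in LD and 8.84, 8.92, 8.80, 8.86 and 8.97 in HD, without overlap, and rose by 0.17 ± 0.040 (SE, limma adjusted p = 0.0033). Polr3a read 7.79, 7.73, 7.73, 7.70 and 7.77 in LD and 7.86, 8.02, 7.77, 7.81 and 7.87 in HD. HD replicate 3 overlapped the LD values, and the difference was 0.12 ± 0.046 (SE, limma adjusted p = 0.039). That call did not hold without any 1 of LD replicates 2, 3, 4 and 5 and HD replicates 1, 2 and 5 (differences of 0.082 to 0.13, adjusted p from 0.051 to 0.078). A dimmer row of Polr3a read 3.96 in LD and 3.98 in HD, below the floor.

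Polr3d and Polr3e form a heterodimer at the edge of polymerase III. Polr3d read 7.74, 7.66, 7.77, 7.81 and 7.75 in LD and 8.16, 8.20, 8.27, 8.09 and 8.09 in HD. Its groups were well apart, with a difference of 0.42 ± 0.043 (SE), 1.33-fold (limma adjusted p = 3.7e-06). Polr3e read 7.73, 7.72, 7.70, 7.76 and 7.80 in LD and 8.01, 7.98, 7.90, 7.88 and 7.85 in HD, and rose by 0.18 ± 0.040 (SE, limma adjusted p = 0.0017). Polr3k, a small subunit with a part in ending transcription, rose by 0.18 ± 0.036 (SE), from 7.37 to 7.43 in LD to 7.52 to 7.66 in HD. Crcp, a stalk subunit named differently and so not among the 31 genes, rose from 8.09 ± 0.085 (SD, n = 5) to 8.66 ± 0.11, a difference of 0.57 ± 0.056 (SE, limma adjusted p = 2.5e-06). It was the largest difference among the 10 measured subunits that only polymerase III uses.

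The heterotrimer of polymerase III, which takes part in opening the promoter, holds Polr3c, Polr3f and either Polr3g or its paralog Polr3gl. Polr3g is known as the form of stem and transformed cells and Polr3gl as the form found widely in differentiated tissue. These alternative subunits moved in opposite directions. Polr3g read 7.51, 7.52, 7.49, 7.42 and 7.56 in LD and 7.85, 7.73, 7.62, 7.73 and 7.74 in HD. All HD values were above all LD values, and the difference was 0.23 ± 0.044 (SE), 1.18-fold (limma adjusted p = 6.3e-04). Polr3gl read 8.12, 8.09, 8.14, 8.16 and 8.11 in LD and 7.89, 7.85, 8.01, 7.99 and 8.00 in HD. All HD values were below all LD values, and Polr3gl fell by 0.18 ± 0.040 (SE), 1.13-fold (limma adjusted p = 0.0019). Of all genes tested, 86.8% had a higher difference. After quantile normalization and control-row scaling the Polr3gl difference was -0.13 and -0.14 (limma adjusted p = 0.025 and 0.029), and that of Polr3g was 0.30 and 0.31.

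The 250 bases before and 50 bases after the annotated start of both genes are shown because these paralogs stand in for each other in the enzyme and differed in opposite directions. They are RefSeq sequences of mouse assembly GRCm38.p6, at chr13:81710964-81711263, - strand for Polr3g and at chr3:96594132-96594431, - strand for Polr3gl, with capitals marking the letters CCGGAAG (the core of ETS factor sites) and CACGTG (an E-box), read on either strand.
Polr3g: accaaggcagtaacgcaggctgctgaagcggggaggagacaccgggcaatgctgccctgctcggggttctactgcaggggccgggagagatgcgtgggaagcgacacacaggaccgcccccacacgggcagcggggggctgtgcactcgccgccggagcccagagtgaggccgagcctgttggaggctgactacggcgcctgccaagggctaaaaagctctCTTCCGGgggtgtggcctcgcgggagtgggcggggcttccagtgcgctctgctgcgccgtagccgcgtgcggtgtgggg
Polr3gl: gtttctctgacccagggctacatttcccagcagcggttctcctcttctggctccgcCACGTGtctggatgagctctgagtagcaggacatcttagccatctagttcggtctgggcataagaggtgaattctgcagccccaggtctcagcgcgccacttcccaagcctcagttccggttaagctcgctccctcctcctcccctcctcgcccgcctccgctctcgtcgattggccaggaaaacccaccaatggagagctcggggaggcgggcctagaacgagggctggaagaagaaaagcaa
The window of Polr3g holds CCGGAAG on the opposite strand, with its first base 29 bases before the start, and no CACGTG. The window of Polr3gl holds CACGTG, with its first base 194 bases before the start, and no CCGGAAG.

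**Figure D3:**
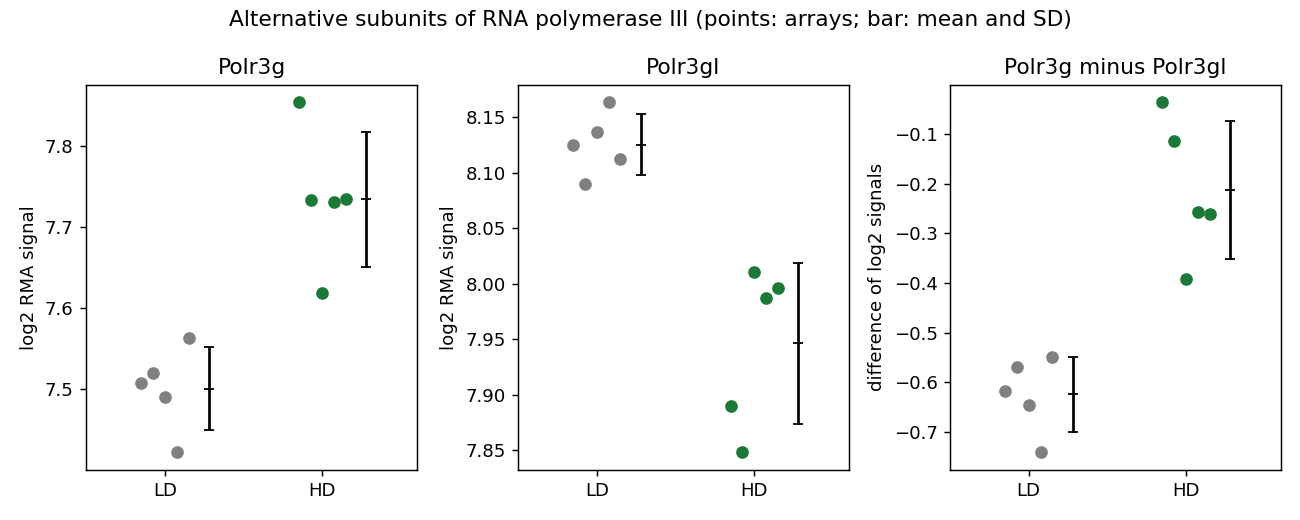
Log2 RMA signal of Polr3g (left) and Polr3gl (middle) and their difference within each array (right), for 5 LD and 5 HD arrays, with the mean and SD beside the points. Axes do not start at 0; the Polr3g values rise and the Polr3gl values fall between LD and HD with no overlap.

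Polr3f read 6.83, 6.93, 6.90, 6.81 and 6.97 in LD and 7.17, 7.07, 6.92, 6.94 and 7.09 in HD. HD replicates 3 and 4 overlapped LD, and the difference was 0.15 ± 0.051 (SE, limma adjusted p = 0.026). The call was lost without any 1 of LD replicates 1 and 4 and HD replicates 1, 2 and 5 (differences of 0.12 to 0.14, adjusted p from 0.051 to 0.062). The Polr3f difference was 0.24 after quantile normalization (adjusted p = 0.0019) and 0.28 after control-row scaling (adjusted p = 7.1e-04). Polr3c read 8.49, 8.48, 8.43, 8.45 and 8.46 in LD and 8.48, 8.52, 8.39, 8.42 and 8.38 in HD, with the groups overlapping, a difference of -0.022 (95% interval -0.10 to 0.058) and a limma adjusted p of 0.64.

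The balance between partner subunits was compared within arrays for 9 pairs, as the log2 ratio of their signals, which shows unequal change and not the stability of either gene. The pairs were chosen after the values had been seen. The Polr3g over Polr3gl ratio differed by 0.41 ± 0.071 (SE) between HD and LD. It was -0.62, -0.57, -0.65, -0.74 and -0.55 on LD arrays 1 to 5 and -0.036, -0.11, -0.39, -0.26 and -0.26 on HD arrays 1 to 5, without overlap. The Polr3d over Polr3e ratio differed by 0.23 ± 0.045 (SE) and the Polr3c over Polr3f ratio by -0.17 ± 0.051. Each of these 3 pairs had a two-sided exact permutation p of 0.0079, or 0.024 after Benjamini-Hochberg adjustment over the 9 pairs. For Polr3g over Polr3gl this p was fixed in advance and adds nothing, since Polr3g rose and Polr3gl fell without overlap. Leaving out a single array could not undo these passes, since LD and HD did not overlap for any of the 3 ratios (adjusted p up to 0.048). For Polr3c over Polr3f the groups were only just apart, at 1.483 for the highest HD and 1.490 for the lowest LD array. The Polr2a over Polr2b ratio differed by 0.23 ± 0.088 (SE) with an exact p of 0.032 and an adjusted p of 0.072. It passed without HD replicate 1 (0.27, adjusted p = 0.036). The Polr1a over Polr1b ratio differed by -0.051 (exact p = 0.25, adjusted p = 0.29), or by -0.071 without HD replicate 5 (adjusted p = 0.043). The Polr2c over Polr2j ratio differed by -0.092 (exact p = 0.087, adjusted p = 0.13), or by -0.12 without HD replicate 5 (adjusted p = 0.043). For Polr1c over Polr1d, Polr2d over Polr2g and Polr3a over Polr3b the differences were -0.058, 0.0071 and -0.046, with exact p of 0.071, 0.94 and 0.26 (adjusted p = 0.13, 0.94 and 0.29).

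Of the 6 TFIIIC genes 4 rose (66.7%), 0 fell and 2 did not pass, beside 31.4% higher and 19.5% lower of all genes tested. The median difference was 0.12, and after the control-row scaling 0.139, near the 0.133 of all genes tested under that scaling. Gtf3c6, the smallest subunit, read 8.84, 8.96, 8.90, 8.87 and 8.94 in LD and 9.31, 9.23, 9.14, 9.13 and 9.27 in HD. The groups were apart, with a difference of 0.31 ± 0.044 (SE), 1.24-fold (limma adjusted p = 5.2e-05). Gtf3c4 rose by 0.17 ± 0.037 (SE, limma adjusted p = 0.0021), from 7.79 to 7.88 in LD to 7.91 to 8.04 in HD. Gtf3c1, the large subunit that binds the downstream promoter element, rose by 0.13 ± 0.033 (SE, limma adjusted p = 0.0062), from 8.69 to 8.77 in LD to 8.83 to 8.92 in HD. Gtf3c2, its neighbour in the complex, rose by 0.10 ± 0.032 (SE, limma adjusted p = 0.016). That call did not hold after quantile normalization (0.063, adjusted p = 0.11), and after the control-row scaling the difference was -0.037 (adjusted p = 0.41).

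Gtf3c5, which binds the upstream promoter element, read 7.43, 7.39, 7.44, 7.41 and 7.46 in LD and 7.46, 7.67, 7.53, 7.47 and 7.50 in HD. All HD values were above the LD values, HD replicate 2 most, yet the difference of 0.098 (95% interval 0.0067 to 0.19) did not pass the test (limma adjusted p = 0.068). It passed without HD replicate 1 (0.12, adjusted p = 0.045), after quantile normalization (0.17, adjusted p = 0.0054) and after the control-row scaling (0.18, adjusted p = 0.0097). Gtf3c3, which contacts TFIIIB, read 8.84, 8.95, 8.85, 8.82 and 8.90 in LD and 8.96, 8.82, 8.77, 8.79 and 8.87 in HD. The groups overlapped, with a difference of -0.031 (95% interval -0.12 to 0.061, limma adjusted p = 0.56).

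Start regions of 27 of the 31 genes were in the RefSeq table; Polr2d, Polr2g, Polr3a and Polr3d were not. The median GC content of these windows was 60.3%, against 52.8% over the 27025 genes in the table. The letters CCGGAAG, read on both strands, were in the windows of 10 genes (37.0%, against 9.93% of all genes in the table): Gtf3c1, Gtf3c2, Gtf3c6, Polr1c, Polr1e, Polr2c, Polr2f, Polr2j, Polr3b and Polr3g. The palindrome CACGTG was in 5 (18.5%, against 8.09%), namely Gtf3c6, Polr2h, Polr3c, Polr3e and Polr3gl. The letters TATAAA, read on both strands, were in 3 (11.1%, against 15.7%), namely Gtf3c6, Polr2a and Polr2c. These motifs do not overlap one another in letters. Gtf3c6 and Polr2h have 2 windows each, and a gene counted if any of its windows held the letters. The genes in the table were not filtered by signal, as the 31 genes were, and the shares were not matched for GC content. A match describes the letters and was not tested as a binding site.

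The windows of Polr2l and Polr1e, the genes that rose most among those named for polymerases II and I, and of Polr2a, the largest polymerase II subunit, show the range. They lie at chr7:141475104-141475403, - strand (Polr2l), chr4:45018359-45018658, + strand (Polr1e) and chr11:69758584-69758883, - strand (Polr2a) of GRCm38.p6, with the motif letters in capitals.
Polr2l: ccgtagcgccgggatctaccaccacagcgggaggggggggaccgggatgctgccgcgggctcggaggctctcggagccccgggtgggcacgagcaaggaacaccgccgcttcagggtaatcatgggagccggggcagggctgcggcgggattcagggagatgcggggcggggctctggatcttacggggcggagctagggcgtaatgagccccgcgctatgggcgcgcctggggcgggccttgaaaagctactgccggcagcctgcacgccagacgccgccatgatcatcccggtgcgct
Polr1e: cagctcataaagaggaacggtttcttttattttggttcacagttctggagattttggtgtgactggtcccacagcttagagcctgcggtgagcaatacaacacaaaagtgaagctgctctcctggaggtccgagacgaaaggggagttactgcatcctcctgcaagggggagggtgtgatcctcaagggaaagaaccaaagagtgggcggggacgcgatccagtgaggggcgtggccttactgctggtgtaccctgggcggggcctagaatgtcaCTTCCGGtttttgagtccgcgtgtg
Polr2a: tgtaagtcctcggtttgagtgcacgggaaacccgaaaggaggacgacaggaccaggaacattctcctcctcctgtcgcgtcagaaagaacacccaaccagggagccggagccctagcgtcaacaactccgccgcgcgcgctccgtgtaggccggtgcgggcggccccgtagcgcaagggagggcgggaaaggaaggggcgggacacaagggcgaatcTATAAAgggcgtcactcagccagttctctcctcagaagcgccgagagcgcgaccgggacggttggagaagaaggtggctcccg
Polr2l holds none of the 3 motifs in a window of 71.0% GC. Polr1e holds CCGGAAG on the opposite strand, with its first base at position 26 of the transcript. Polr2a holds TATAAA with its first base 33 bases before the start.

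Factors that work with the polymerases were counted in the same fit. Of 7 tested genes of polymerase I initiation, 4 rose and 1 fell, with a median difference of 0.12. Rrn3, which joins polymerase I to its promoter complex, rose by 0.31 ± 0.044 (SE). Ubtf, the factor that coats ribosomal DNA, rose by 0.22 ± 0.033 (0.13 after the control-row scaling), and Cavin1, which also has a role in releasing finished transcripts, by 0.20 ± 0.043. The gene that fell was Taf1b, of the promoter selectivity complex (-0.13, limma adjusted p = 0.038), named after its values were seen. Its call was lost after quantile normalization, after the control-row scaling and without any 1 of 7 arrays (all but LD replicate 4 and HD replicates 1 and 2). Its difference without 1 array was -0.16 to -0.093, with adjusted p up to 0.092.

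For polymerase II, 12 of 28 initiation factors rose and 1 fell (median 0.076), beside 31.4% and 19.5% of all genes tested. After quantile normalization 18 rose and 1 fell, where 42.9% of all genes tested rose, and after control-row scaling 17 rose and 2 fell, where 49.3% did. The largest rises were in Gtf2f2 of TFIIF (0.44 ± 0.047, SE) and in Gtf2h5 and Gtf2h1 of TFIIH (0.36 ± 0.049 and 0.31 ± 0.051). Taf1, the largest TFIID subunit, was the gene that fell (-0.12, limma adjusted p = 0.032). It was named after its values were seen, with the call lost without any 1 of 7 arrays (all but LD replicate 4 and HD replicates 1 and 5), with differences without 1 array of -0.14 to -0.095 and adjusted p up to 0.079. In the elongation list 6 of 19 rose (31.6%) and 3 fell (15.8%), shares near the 31.4% and 19.5% of all genes tested, with a median of 0.071. Supt16 of the histone chaperone FACT rose by 0.31 ± 0.047 (SE; 0.18 after the control-row scaling) and Larp7, which holds the elongation kinase inactive, by 0.25 ± 0.052. Ccnt2, a cyclin of that kinase, fell by 0.27 ± 0.045 (SE, limma adjusted p = 2.2e-04). The other two that fell, both named after their values were seen, were Ctr9 (-0.12) and Nelfb (-0.11, limma adjusted p = 0.042). The Nelfb call was lost after quantile normalization (-0.066, adjusted p = 0.17), after the control-row scaling (-0.082, adjusted p = 0.12) and without any 1 array other than HD replicates 1 and 2, with differences without 1 array of -0.14 to -0.083 and adjusted p up to 0.10.

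In the polymerase III initiation list, 5 of 11 rose (45.5%) and 1 fell (9.09%), beside 31.4% and 19.5% of all genes tested. The median of the list was 0.051, below the 0.055 of all genes tested. After quantile normalization 6 rose and 1 fell (median 0.108, against 0.090), where 42.9% of all genes tested rose. After control-row scaling 6 rose and 1 fell (median 0.105, against 0.133), where 49.3% did. Snapc5, of the complex that recognises small nuclear RNA promoters, rose by 0.54 ± 0.054 (SE), while Snapc3 of the same complex fell by 0.40 ± 0.053 (limma adjusted p = 2.5e-06 and 2.7e-05). Gtf3a, the factor for the small ribosomal RNA gene of polymerase III, rose by 0.34 ± 0.041 (SE). Maf1, the repressor of polymerase III, differed by -0.088 (limma adjusted p = 0.076; -0.027 after quantile normalization) and Brf1, of TFIIIB, by -0.041 (limma adjusted p = 0.36), both named after their values were seen.

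Of 11 genes for assembly and nuclear import of the polymerases, 7 rose (63.6%) and 1 fell (9.09%), beside 31.4% and 19.5% of all genes tested. The median of the list was 0.13. Gpn2, a GTPase of assembly, rose by 0.28 ± 0.048 (SE; 0.43 after the control-row scaling), as did the chaperone ATPase Ruvbl1 (0.28 ± 0.042), while Rpap2, a phosphatase of the polymerase II tail, fell by 0.30 ± 0.054 (-0.19 after the control-row scaling). In the mitochondrial transcription list 5 of 7 rose (71.4%) and none fell (median 0.15), beside 31.4% and 19.5% of all genes tested. Tfb2m, a mitochondrial initiation factor, rose by 0.32 ± 0.056 (SE), Mterf3 by 0.28 ± 0.045 and the mitochondrial RNA polymerase Polrmt by 0.16 ± 0.035 (0.26 after the control-row scaling). As deposited, the medians of these 6 lists lay below those of the polymerase I, II and III genes. The medians of the polymerase I initiation, assembly and mitochondrial lists lay above that of the TFIIIC genes (0.115). After the control-row scaling the median of the mitochondrial list was 0.25, above the 0.24 of polymerases I and III and the 0.22 of polymerase II. The difference between lists was not tested.

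**Figure D4:**
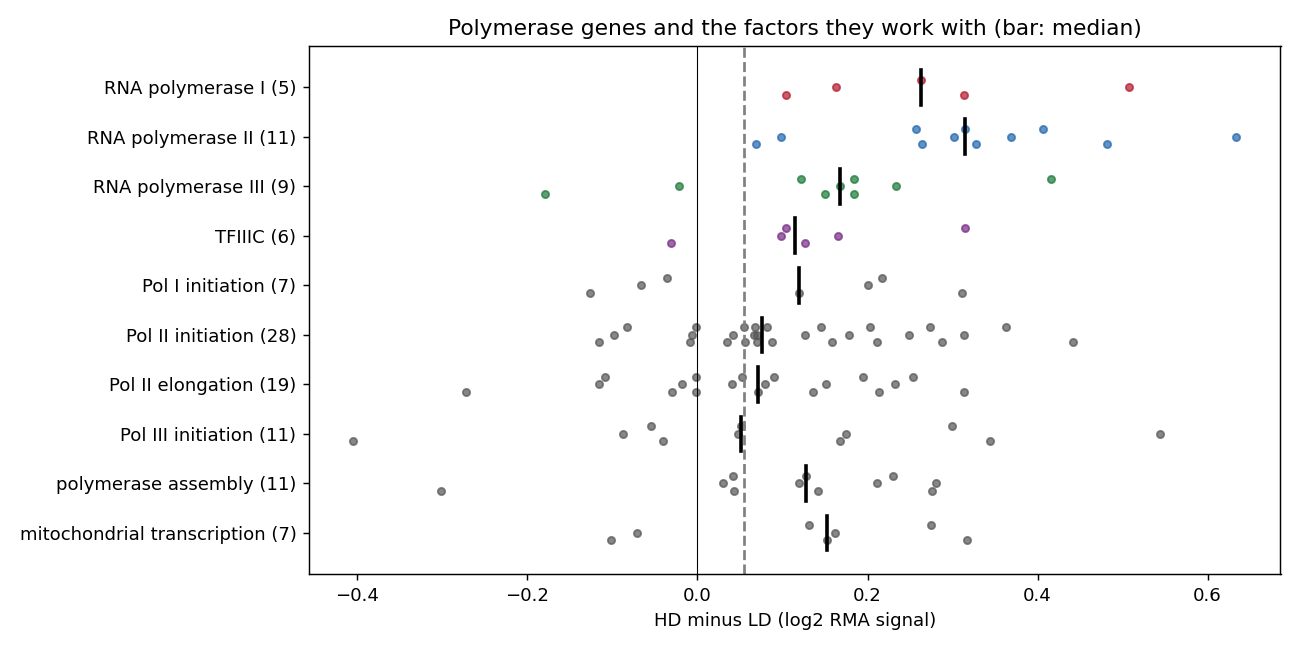
HD minus LD difference in log2 RMA signal for each tested gene (points) of the 4 groups of polymerase and TFIIIC genes and of 6 lists of factors that work with them or transcribe mitochondrial DNA, with the number of genes in brackets. Black bars are list medians, from 0.051 for polymerase III initiation to 0.31 for the polymerase II genes, and the dashed line is the median of all genes tested (0.055).

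**Figure D5:**
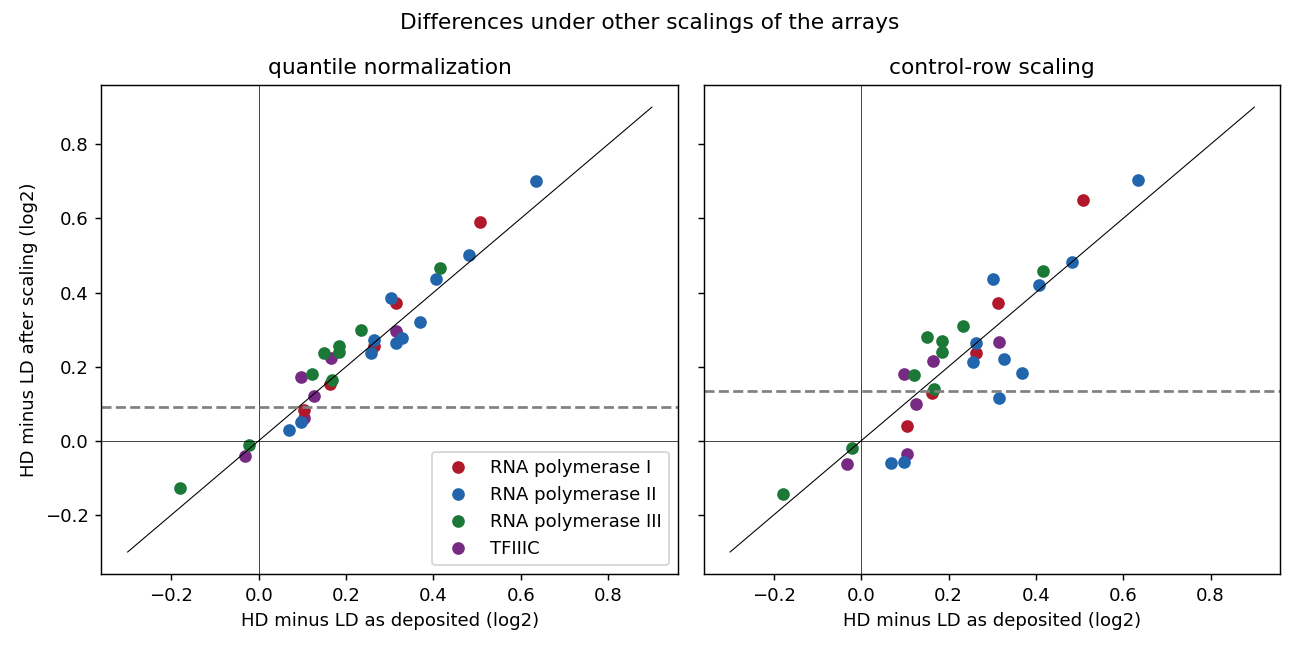
HD minus LD difference of the 31 genes as deposited (horizontal axis) against the difference after quantile normalization (left) or control-row scaling (right), in log2 units. The solid line marks equal values and the dashed lines the median of all genes tested (0.090 and 0.13); Polr2b, Polr2e and Gtf3c2 lie below 0 on the right only, and Polr3gl, Polr3c and Gtf3c3 lie below 0 on both axes of either panel.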

How the data were processed

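Gene expression was measured on 10 single-colour arrays, 5 LD and 5 HD. The deposited table holds log2 signals, 1 per row and array; the authors used RMA for them, per the submitters' processing notes. This method subtracts background, equalises probe intensities between arrays and summarises probes. No source states the log base, and log2 is inferred from the range (1.49 to 14.3). Software and genome build were not given in the sources used here. Without scan dates, which were not used here, batches and groups cannot be told apart. The number of arrays limits the precision.

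Gene symbols came from the platform annotation, in which 30604 rows name 1 symbol and 2146 several, repeats removed. Symbols were updated through gene IDs in RefSeq's mouse table (GRCm38.p6). Each gene was its brightest row, tested if its mean exceeded the median of all row means. The HD minus LD difference was tested with limma 3.58.1 in R 4.3.3 (lmFit and eBayes, without covariates), two-sided, adjusted by Benjamini-Hochberg over 17800 genes at 0.05; the fit was tested on simulated data. Errors are SD over arrays or moderated SE; for ratios of pairs the SE is that of a difference of means.

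The genes, lists and pairs were chosen with earlier results of these data known. Named genes were all 31 and, from each list of other factors, up to 3 genes past the threshold with the largest difference; others from these lists are marked as named after their values were seen. CCGGAAG was added to the motifs after the expression values were seen; a longer motif, that of NRF1, was also searched and is not reported here. Protein sequences were not analysed here.

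Replicate numbers 1 to 5 were checked as pairs. After group means were removed, arrays of equal number correlated at 0.19, -0.091, -0.036, 0.22 and -0.025, so no pairing was assumed. Alternatives were a replicate block, 3 scalings of the arrays, other filters, row averages, other variance and weight models, a 1.5-fold minimum and each array left out.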

Additional observations from a re-analysis of the deposited data

Results flagged for a closer look

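Single arrays were compared with the rest of their group for each of the 31 genes in LD and in HD, 62 groups of 5 in all. In 2 of them, both of Polr2i, 1 array stood apart by the size of its gap to the nearest array relative to the group's range; chance gives about 1 in 20 groups. LD replicate 4 read 6.84 for Polr2i, against 6.68 to 6.72 in the other LD arrays. HD replicate 2 read 7.18, against 6.97 to 7.02 in the other HD arrays. The difference of Polr2i was 0.27 to 0.33 with any 1 array left out, and passed the test each time.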

How the results depend on the processing

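The counts of 24 higher and 1 lower genes, and those of each polymerase, stayed within 1.5 times their value under every alternative except the minimum of 1.5-fold. With that minimum 1 gene rose and 0 fell; the counts of rising genes became 0 for polymerase I, 1 for II, 0 for III and 0 for TFIIIC, and the fall of Polr3gl was lost (0 lower). The replicate block changed no call among the 31 genes (24 higher, 1 lower), and among the other genes named it ended that of Nelfb (adjusted p = 0.073). Leaving out single arrays changed calls of Polr1c, Polr2b, Polr3a, Polr3f and Gtf3c5 alone among the 31 genes, as given above. Polr3a was also lost after median centring (adjusted p = 0.074), without the filter on dim rows (0.068) and when its rows were averaged (0.070, adjusted p = 0.21); the stricter filter left 29 genes and added Polr1c (adjusted p = 0.044) and Gtf3c5 (0.049). The control-row scaling reversed Gtf3c2 (-0.037), Polr2b (-0.056) and Polr2e (-0.060), while the share of all genes called higher rose to 49.3% and their median difference to 0.13. The Polr3a over Polr3b ratio reversed after quantile normalization (0.015) and control-row scaling (0.037). That of Polr2d over Polr2g reversed without single arrays (-0.025 to 0.042; -0.0074 without LD replicate 3, -0.00015 without LD replicate 4, -0.0012 without HD replicate 1). Under quantile normalization and control-row scaling the ratios of Polr1a over Polr1b (-0.12 and -0.14), Polr2a over Polr2b (0.23 and 0.28) and Polr2c over Polr2j (-0.17 and -0.30) passed, and Polr1c over Polr1d passed under the latter (-0.089). The causes were not tested. Differences under about 0.1 on the log2 scale were near the test's limit with 5 arrays a group.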
